A study of Homo sapiens with 3 samples.

Results

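The genes described here are 10 carbonyl-metabolising enzymes, 6 aldo-keto reductases (AKR1A1, AKR1B1, AKR1B10, AKR1C1, AKR1C2 and AKR1C3) and 4 aldehyde dehydrogenases (ALDH1A1, ALDH1A3, ALDH3A1 and ALDH3A2). They were chosen by gene symbol, with earlier results of these data known. All 10 were listed with reads in every library, among 18856 genes listed in at least 1. The 3 libraries came from A549, an established line of lung adenocarcinoma cells, by LIEA, and from HBE, an established line of bronchial epithelium, by LIEA and by Smart-seq2. Each was made from about 10 pg of polyA+ mRNA diluted from a bulk preparation, with no drug or genetic treatment named. In LIEA (low-input, equal-amplification) the RNA was broken at random before adapters were joined and cDNA was made. The cDNA library was first amplified together by PCR. Its molecules were then amplified apart from each other on beads for Ion Torrent sequencing. Smart-seq2 copied whole cDNA and amplified it together by PCR before an Illumina library was built. Each condition had 1 library, so no difference below has a replicate check and no test over samples was possible.

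Aldo-keto reductases use NADPH to turn aldehydes and ketones, including sugars, steroids, prostaglandins and products of lipid peroxidation, into alcohols. Aldehyde dehydrogenases use NAD+ or NADP+ to oxidise aldehydes to acids, and the ALDH1A enzymes make retinoic acid from retinaldehyde. Several genes of both families are known targets of the transcription factor NRF2, encoded by NFE2L2, which is held at a low level by the adaptor protein KEAP1.

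The recovered totals were 4154060 mapped reads for A549 LIEA, 4605855 for HBE LIEA and 9845150 for HBE Smart-seq2. A floor of 3 reads was 0.722, 0.651 and 0.305 reads per 1000000 in that order. Levels are in rpkM, reads per kilobase of transcript per 1000000 mapped reads, and intervals are exact 95% intervals that cover counting error only, since PCR copies of 1 molecule are counted as separate reads. All 5 basal airway markers on the list (KRT5, KRT14, KRT17, TP63 and KRT6A) were at least 2-fold lower in A549 than in HBE LIEA, summing to 31.1 against 3207 reads per 1000000, and to 10808 in HBE Smart-seq2. The 5 general epithelial markers summed to 15277, 2997 and 5815 reads per 1000000 in A549 LIEA, HBE LIEA and HBE Smart-seq2. In A549 LIEA, KRT8 and KRT18 were 7.82-fold and 5.79-fold higher than in HBE LIEA, EPCAM and CDH1 7.84-fold and 2.95-fold lower, and KRT19 lay between. Of 5 alveolar markers, SFTPA1 and SFTPC were at 0 in all 3 libraries and the list summed to between 4.78 and 6.09 reads per 1000000. The 9 markers of leukocytes, fibroblasts, endothelium and liver summed to 43.3 reads per 1000000 in A549 LIEA, 101 in HBE LIEA and 69.6 in HBE Smart-seq2. In this list CDH5, an endothelial cadherin, had 0, 103 and 180 reads. Of the leukocyte markers, PTPRC had 2, 0 and 3 reads and CD68 had 71, 151 and 326. COL1A1, a fibroblast marker, had 93, 175 and 85 reads. The part of these differences in the results below was not tested.

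Together the 10 genes took 111530 reads or 2.68% of A549 LIEA (95% exact interval 2.67 to 2.70), against 0.117% of HBE LIEA (0.113 to 0.120) and 0.415% of HBE Smart-seq2 (0.411 to 0.419). Of the 10 genes, 8 were at least 2-fold higher in A549 LIEA than in HBE LIEA, where 20.2% of the 13595 genes with at least 10 reads in either library were. ALDH1A3 was the 1 gene at least 2-fold lower, a class that held 20.9% of all genes, and AKR1A1 lay between. The median log2 ratio of the 10 genes was 5.18, against -0.13 over all genes. As the genes were chosen with earlier results of these data known, these counts and medians are a description and not a test. In A549 LIEA 5 of the 10 genes were among the 30 genes with the highest rpkM, of 16711 listed in that library. All but ALDH1A3 were higher in A549 LIEA than in both HBE libraries, which was not counted over all genes. As the mRNA was pooled from many cells, a higher level in each cell and a larger share of cells with the transcript cannot be told apart.

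**Figure D1:**
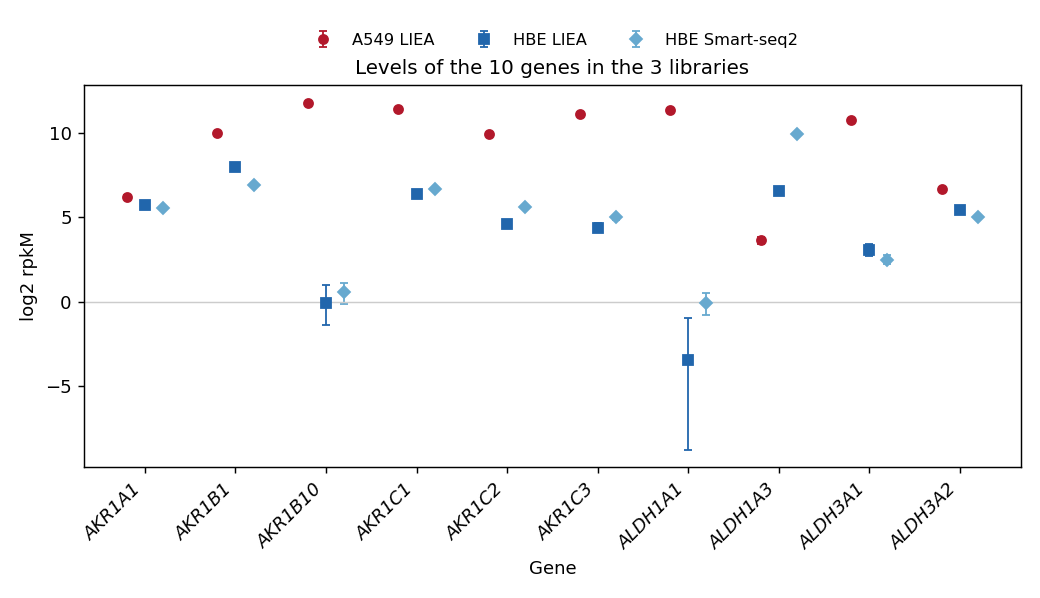
Level of each gene in the 3 libraries, in rpkM on a log axis; points are single libraries and bars are exact 95% counting intervals. AKR1B10 and ALDH1A1 lie at 3469 and 2631 rpkM in A549 LIEA and below 1.5 rpkM in both HBE libraries, while ALDH1A3 is lowest in A549 LIEA, at 12.4 rpkM.

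The AKR1C genes reduce keto groups of steroids and prostaglandins and lie side by side on chromosome 10. In GRCh37, AKR1C1 (chr10:5005445-5025475, plus strand) is separated by 4491 bases from AKR1C2 (chr10:5029967-5060223, minus strand), and AKR1C3 (chr10:5077546-5149878, plus strand) starts 17322 bases further. Each has 9 exons and a coding sequence of 969 bases. Their first coding exons, from the start codon, are shown because their closeness limits how far reads can be told apart. Capitals mark the 10 positions of 84 at which the 3 genes are not all alike.
AKR1C1, chr10:5005637-5005720, plus strand: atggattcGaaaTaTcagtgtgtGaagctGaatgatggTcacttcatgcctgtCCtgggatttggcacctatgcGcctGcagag
AKR1C2, chr10:5045944-5046027, minus strand: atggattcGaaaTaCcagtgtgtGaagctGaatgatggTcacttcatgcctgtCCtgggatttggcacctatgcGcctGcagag
AKR1C3, chr10:5136637-5136720, plus strand: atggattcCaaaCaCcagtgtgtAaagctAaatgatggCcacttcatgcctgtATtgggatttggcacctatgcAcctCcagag

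Over the whole coding sequence AKR1C1 and AKR1C2 were 98.0% identical, with 19 of 969 bases different. Of the windows of 50 bases along AKR1C1, 51.6% occurred unchanged in AKR1C2 and 93.0% occurred with at most 3 mismatches. AKR1C3 was 91.4% identical to AKR1C1 and 91.0% to AKR1C2. With at most 3 mismatches, 40.3% of the AKR1C1 windows and 37.5% of the AKR1C2 windows occurred in AKR1C3. How reads that fitted several of these genes were assigned is not given in the sources used here. The split between the 3 genes is therefore uncertain, most of all between AKR1C1 and AKR1C2, and the sum of the 3 is given beside it.

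AKR1C1, a 20-alpha-hydroxysteroid dehydrogenase that inactivates progesterone, had 15336 reads (2677 rpkM) in A549 LIEA, 518 (81.6 rpkM) in HBE LIEA and 1373 (101 rpkM) in HBE Smart-seq2. AKR1C2, a 3-alpha-hydroxysteroid dehydrogenase that inactivates dihydrotestosterone, had 14499 reads (968 rpkM), 401 (24.2 rpkM) and 1727 (48.7 rpkM) in the same order. AKR1C3, which makes testosterone from androstenedione and prostaglandin F, had 11129 reads (2189 rpkM), 118 (20.9 rpkM) and 387 (32.1 rpkM). For each gene A549 LIEA was far above both HBE libraries, which differed from each other by at most 2.01-fold.

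Relative to HBE LIEA, AKR1C1 was 32.8-fold higher in A549 (log2 ratio 5.04, 95% interval 4.91 to 5.17) and AKR1C2 40.1-fold higher (5.33, 5.18 to 5.47). AKR1C3 differed most of the 3, 105-fold (log2 ratio 6.71, 6.45 to 6.98), with an interval that lay above those of its neighbours. Summed over the 3 genes, 40964 reads in A549 LIEA stood against 1037 in HBE LIEA and 3487 in HBE Smart-seq2, or 0.986%, 0.0225% and 0.0354% of all reads. The balance within the cluster, as the reads were assigned, also differed between libraries. By rpkM, AKR1C1 was 1.22 times AKR1C3 in A549 LIEA, 3.90 times in HBE LIEA and 3.15 times in HBE Smart-seq2. The rpkM ratio of AKR1C1 to AKR1C2 was 2.77, 3.38 and 2.08, with lengths of 1379 and 3605 bases. AKR1C1 had 15336 reads to 14499 of AKR1C2 in A549 LIEA, 518 to 401 in HBE LIEA and 1373 to 1727 in HBE Smart-seq2. The size of an rpkM ratio thus depends on these lengths, and the split between the 3 genes is uncertain.

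The promoters of the 3 genes follow, from 250 bases before to 50 bases after the RefSeq start on GRCh38.p14, because the genes differed together between the cell lines. The downstream of the RefSeq starts listed for AKR1C3 is shown. Capitals mark CCAAT or its reverse complement, the letters of the CCAAT box.
AKR1C1, chr10:4963165-4963464, plus strand: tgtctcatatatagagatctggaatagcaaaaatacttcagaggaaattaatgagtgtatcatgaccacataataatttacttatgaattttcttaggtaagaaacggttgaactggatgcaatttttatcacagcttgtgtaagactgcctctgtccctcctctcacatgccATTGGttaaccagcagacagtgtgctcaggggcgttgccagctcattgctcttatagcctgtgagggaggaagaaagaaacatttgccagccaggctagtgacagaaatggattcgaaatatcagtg
AKR1C2, chr10:5003808-5004107, minus strand: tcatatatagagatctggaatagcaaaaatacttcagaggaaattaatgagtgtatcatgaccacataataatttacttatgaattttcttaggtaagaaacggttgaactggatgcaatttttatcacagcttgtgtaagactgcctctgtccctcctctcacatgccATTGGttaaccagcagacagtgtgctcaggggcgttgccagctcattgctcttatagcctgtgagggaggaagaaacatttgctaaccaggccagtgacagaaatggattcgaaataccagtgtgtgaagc
AKR1C3, chr10:5094164-5094463, plus strand: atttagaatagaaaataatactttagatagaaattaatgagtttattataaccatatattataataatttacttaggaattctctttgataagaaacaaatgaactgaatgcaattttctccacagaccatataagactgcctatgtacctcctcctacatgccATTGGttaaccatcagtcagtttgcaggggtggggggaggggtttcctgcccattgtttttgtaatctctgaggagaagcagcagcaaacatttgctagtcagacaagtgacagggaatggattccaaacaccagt

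Over the aligned bases of these windows AKR1C1 and AKR1C2 were 98.6% identical, and AKR1C3 was 79.5% identical to AKR1C1 and 80.6% to AKR1C2. Gaps, 16, 34 and 42 bases in that order, are left out of these percentages. The CCAAT letters lay 77, 81 and 86 bases before the start in AKR1C1, AKR1C2 and AKR1C3. RefSeq gave 11 promoter windows for 8 of the 10 genes, none being given for AKR1B10 and ALDH3A1. CCAAT, searched on both strands, was in 9 of the 11 windows against 34.6% of 35116 windows of all genes. The overlapping windows of AKR1B1 held the same copy. The AKR1C windows were 77.7% to 98.6% identical to each other, so the 9 are not independent. TATAAA was in 1 window, the upstream start of AKR1C3, against 11.5% of all windows. TGACNNNGC, the core of the element that NRF2 binds, was in 0 of 11 windows against 13.3% of all, which says only that these letters are not in these 300 bases.

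The AKR1B genes lie on chromosome 7. AKR1B1, aldose reductase, which turns glucose into sorbitol (chr7:134127108-134144036, minus strand, 10 exons), is 68282 bases from AKR1B10 (chr7:134212319-134226164, plus strand, 10 exons). AKR1B10 is a reductase of retinaldehyde and other aldehydes, best known from the intestine and from tumours. It is 7697 bases from its close copy AKR1B15, whose coding sequence was 95.1% identical to that of AKR1B10, with 46 of 948 bases different. Their first coding exons on GRCh37 show this closeness, with the 2 differing positions of 66 in capitals.
AKR1B10, chr7:134212664-134212729, plus strand: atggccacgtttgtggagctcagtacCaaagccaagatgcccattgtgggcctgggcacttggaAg
AKR1B15, chr7:134250233-134250298, plus strand: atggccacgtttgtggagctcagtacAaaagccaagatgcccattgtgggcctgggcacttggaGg

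AKR1B10 had 22999 reads (3469 rpkM) in A549 LIEA, 7 (0.952 rpkM) in HBE LIEA and 23 (1.46 rpkM) in HBE Smart-seq2. It was the gene with the eighth highest rpkM in A549 LIEA. Its log2 ratio of A549 to HBE LIEA was 11.83 (10.79 to 13.15), the third highest of 13595 genes, and rests on 7 reads in HBE. AKR1B15 had 4047, 3 and 4 reads, and AKR1B10 with AKR1B15 summed to 27046, 10 and 27 reads. Since 76.1% of the 50-base windows of AKR1B10 occurred in AKR1B15 with at most 3 mismatches, AKR1B15 is reported as uncertain, and how many of its reads came from AKR1B10 was not tested.

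AKR1B1 was high in both cell lines, with 5868 reads (1010 rpkM) in A549 LIEA, 1585 (246 rpkM) in HBE LIEA and 1618 (118 rpkM) in HBE Smart-seq2. It was 4.10-fold higher in A549 than in HBE LIEA (log2 ratio 2.04, 1.96 to 2.12), and no 50-base window was shared with AKR1B10 within 3 mismatches. The order of the pair turned between the lines. By rpkM, AKR1B10 was 3.43 times AKR1B1 in A549 LIEA, whereas AKR1B1 was 258 times AKR1B10 in HBE LIEA and 80.3 times in HBE Smart-seq2.

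AKR1A1, the broad aldehyde reductase (chr1:46016215-46035721, plus strand), was the member whose level differed least. It had 481 reads (73.3 rpkM) in A549 LIEA, 376 (51.7 rpkM) in HBE LIEA and 712 (45.8 rpkM) in HBE Smart-seq2. The A549 level was 1.42-fold that of HBE LIEA (log2 ratio 0.50, 0.31 to 0.70).

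**Figure D2:**
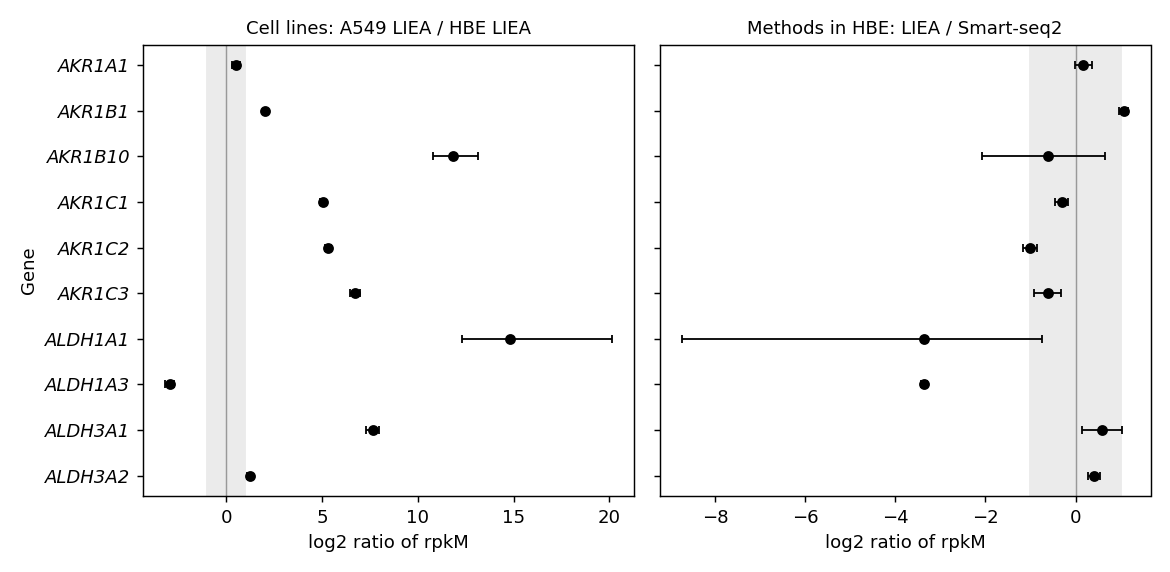
Log2 ratio of rpkM for each gene, A549 LIEA to HBE LIEA in one panel and HBE LIEA to HBE Smart-seq2 in the other; bars are exact 95% counting intervals, the shaded band is within 2-fold, and the panels have different scales. In the cell line panel 8 genes lie above the band and ALDH1A3 below it, and in the method panel 6 lie within it.

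The ALDH1A enzymes, which make retinoic acid, differed between the lines in opposite directions. ALDH1A1 (chr9:75515587-75695358, minus strand, 13 exons) had 25893 reads (2631 rpkM) in A549 LIEA, 1 (0.0916 rpkM) in HBE LIEA and 22 (0.943 rpkM) in HBE Smart-seq2. ALDH1A3 (chr15:101417919-101456831, plus strand, 13 exons) had 180 reads (12.4 rpkM), 1530 (95.05 rpkM) and 33692 (979 rpkM) in the same libraries. ALDH1A1 was thus abundant in A549 and covered by few reads in HBE, and ALDH1A3 was the lowest of the 10 genes in A549.

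ALDH1A1 had the highest log2 ratio of A549 to HBE LIEA of all 13595 genes, 14.81, but with 1 HBE read its interval ran from 12.33 to 20.11. ALDH1A3 was 7.67-fold lower in A549 than in HBE LIEA (log2 ratio -2.94, -3.17 to -2.71), at place 610 from the lowest. By rpkM, ALDH1A1 was 212 times ALDH1A3 in A549 LIEA, and ALDH1A3 was 1037 times ALDH1A1 in HBE LIEA and 1038 times in HBE Smart-seq2. Their coding sequences were 69.5% identical over aligned bases, with 63 gap bases left out, and shared no 50-base window within 3 mismatches.

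The ALDH3A genes lie 52223 bases apart on chromosome 17. ALDH3A1, the detoxifying enzyme abundant in the cornea (chr17:19641297-19652256, minus strand), had 13543 reads (1691 rpkM) in A549 LIEA, 75 (8.45 rpkM) in HBE LIEA and 107 (5.64 rpkM) in HBE Smart-seq2. ALDH3A2, the fatty aldehyde dehydrogenase of the endoplasmic reticulum (chr17:19551449-19589073, plus strand), had 1602 reads (101 rpkM), 757 (43.0 rpkM) and 1214 (32.3 rpkM). Both were highest in A549 LIEA, and the gap was far wider for ALDH3A1.

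ALDH3A1 was 200.2-fold higher in A549 than in HBE LIEA (log2 ratio 7.65, 7.32 to 7.99) and ALDH3A2 2.35-fold higher (1.23, 1.10 to 1.36). By rpkM, ALDH3A1 was 16.8 times ALDH3A2 in A549 LIEA, and ALDH3A2 was 5.09 times ALDH3A1 in HBE LIEA and 5.72 times in HBE Smart-seq2. The coding sequences, 69.1% identical over aligned bases with 226 gap bases left out, shared no 50-base window within 3 mismatches.

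**Figure D3:**
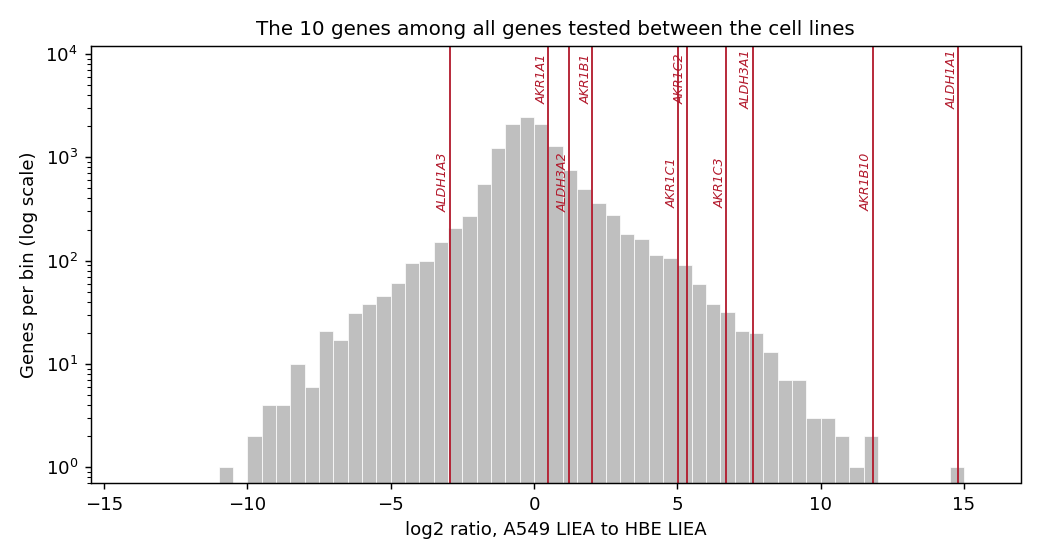
Number of genes by log2 ratio of A549 LIEA to HBE LIEA, for genes with at least 10 reads in either library (those with 0 reads in 1 library at a floor of 3 reads), with lines at the 10 enzymes, each labelled to the left of its line. The genes centre near 0, and ALDH1A1 and AKR1B10 stand at the far right, at 14.81 and 11.83.

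As a share of the summed rpkM of the 10 genes, the enzymes that led differed by library. In A549 LIEA AKR1B10 gave 23.4%, AKR1C1 18.1%, ALDH1A1 17.8%, AKR1C3 14.8% and ALDH3A1 11.4%. AKR1B1 led in HBE LIEA with 43.0%, before ALDH1A3 with 16.6% and AKR1C1 with 14.3%. In HBE Smart-seq2 ALDH1A3 alone gave 71.7%. Neighbours in the order of levels whose counting intervals overlapped were AKR1C1 and ALDH1A1 in A549 LIEA, AKR1C2 and AKR1C3 in HBE LIEA, AKR1C2 and AKR1A1 as well as ALDH3A2 and AKR1C3 in HBE Smart-seq2, and AKR1B10 and ALDH1A1 in both HBE libraries.

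**Figure D4:**
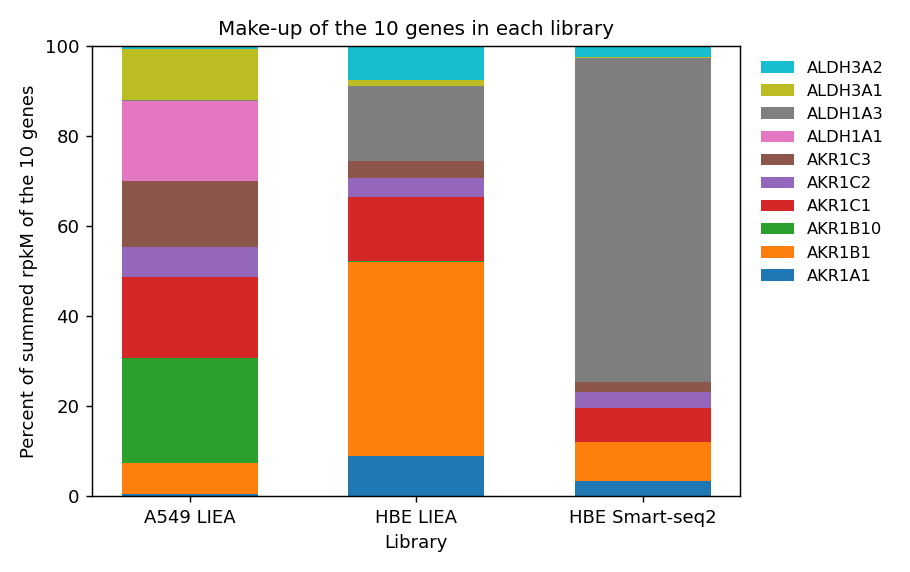
Percent of the summed rpkM of the 10 enzymes given by each, in the 3 libraries. Several reductases and dehydrogenases share A549 LIEA, AKR1B1 leads HBE LIEA with 43.0%, and ALDH1A3 takes 71.7% of HBE Smart-seq2.

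HBE LIEA and HBE Smart-seq2 were compared to see how far each gene differed between libraries of the same line. With 1 library of each, the library method cannot be told apart from the sequencer, the mapping settings or variation between libraries. The comparison shares the HBE LIEA library with the one between cell lines. AKR1B1 was the 1 gene at least 2-fold higher in LIEA, 2.09-fold (log2 ratio 1.07, 0.97 to 1.17), a class that held 28.5% of 13490 genes. AKR1C2, ALDH1A1 and ALDH1A3 were at least 2-fold lower in LIEA, as were 22.2% of all genes, and the other 6 lay between. The median log2 ratio of the 10 genes was -0.46, against 0.04 over all genes.

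ALDH1A3 stood apart, 10.3-fold lower in LIEA than in Smart-seq2 (log2 ratio -3.36, -3.44 to -3.29), at place 107 from the lowest of 13490 genes. Its reads were 82.4% of the Smart-seq2 reads of the 10 genes. AKR1C2 was close to the 2-fold line (log2 ratio -1.01, -1.17 to -0.85), and ALDH1A1 rested on 1 read against 22 (log2 ratio -3.36, -8.73 to -0.73). For AKR1A1 (0.17, -0.01 to 0.36) and AKR1B10 (-0.62, -2.08 to 0.65) the counting interval of the log2 ratio held 0. For 9 of the 10 genes the log2 difference between the cell lines by LIEA was larger than that between HBE LIEA and HBE Smart-seq2, the exception being ALDH1A3. The share of all genes for which this held was not counted, so the 9 has no background beside it.

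Lists of related genes, also chosen with earlier results of these data known, were compared between A549 LIEA and HBE LIEA in the same way. Over all genes, 20.2% were at least 2-fold higher in A549 LIEA and 20.9% lower. Of 10 other genes of the AKR family, 5 had enough reads, and 4 were at least 2-fold higher in A549, none lower. The 4 were AKR1B15, AKR1E2 (44 and 4 reads) and the potassium channel subunits KCNAB2 (271 and 74) and KCNAB3 (13 and 6). The log2 interval of KCNAB3, -0.23 to 2.95, held 0. The median log2 ratio of the 5, 2.02, was that of KCNAB2. Ratios ran from AKR7A2, which reduces succinic semialdehyde (0.57), to AKR1B15 (10.55). The 1496-fold ratio of AKR1B15, with an interval of 511 to 7256, rests on 3 HBE reads, and its reads are uncertain as described above. Of 15 other ALDH genes, 13 had enough reads, with 3 higher, 2 lower and a median of 0.19. ALDH3B1, a dehydrogenase of lipid aldehydes, was highest with 4724 reads in A549 LIEA and 466 in HBE LIEA (3.49). ALDH3B2 was lowest with 23 and 103 (-2.01). ALDH2, the mitochondrial enzyme that clears acetaldehyde, had 523 and 162 reads (1.84).

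Of 30 NRF2 regulators and other NRF2 targets, all had enough reads, 23 were at least 2-fold higher in A549 LIEA and none lower. The shares over all genes were 20.2% and 20.9%. The median log2 ratio of the list was 2.20. The regulators NFE2L2 (325 and 353 reads, 0.03) and KEAP1 (757 and 682 reads, 0.30) lay within 2-fold. HMOX1, haem oxygenase, had the highest ratio with 1079 and 14 reads (6.42), and BACH1, a repressor at the same elements, the lowest with 82 and 126 reads (-0.47). GPX2, a glutathione peroxidase, had 5484 and 95 reads.

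The polyol and NADPH list holds the enzymes beside aldose reductase and those that supply its cofactor. Of its 9 genes, 5 were higher and 1 lower in A549 LIEA, beside 20.2% and 20.9% of all genes, with a median log2 ratio of 1.64. PGD, which makes NADPH in the pentose phosphate pathway, was highest with 11713 and 637 reads (4.35). SORD, which takes sorbitol on to fructose after AKR1B1, was lowest with 213 and 716 reads (-1.60). Some of these genes, PGD among them, are also on the NRF2 list.

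In the retinoid list, which surrounds the ALDH1A step, 18 of 23 genes had enough reads. Of these 6 were at least 2-fold higher and 5 lower in A549 LIEA, beside 20.2% and 20.9% of all genes. The median log2 ratio of the list was -0.16. RARB, a retinoic acid receptor, was highest with 80 reads against 1 in HBE LIEA (6.47, 3.95 to 11.79). STRA6, the retinol transporter, had 480 and 49 reads (3.44), and the receptors RARG (158 and 595 reads, -1.76) and RXRA (185 and 818 reads, -2.00) were lower. CRABP1, which binds retinoic acid, had 69 reads in A549 LIEA and 0 in HBE LIEA, so it was at least 25.5-fold higher against a floor of 3 HBE reads, and entered the median at that bound.

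**Figure D5:**
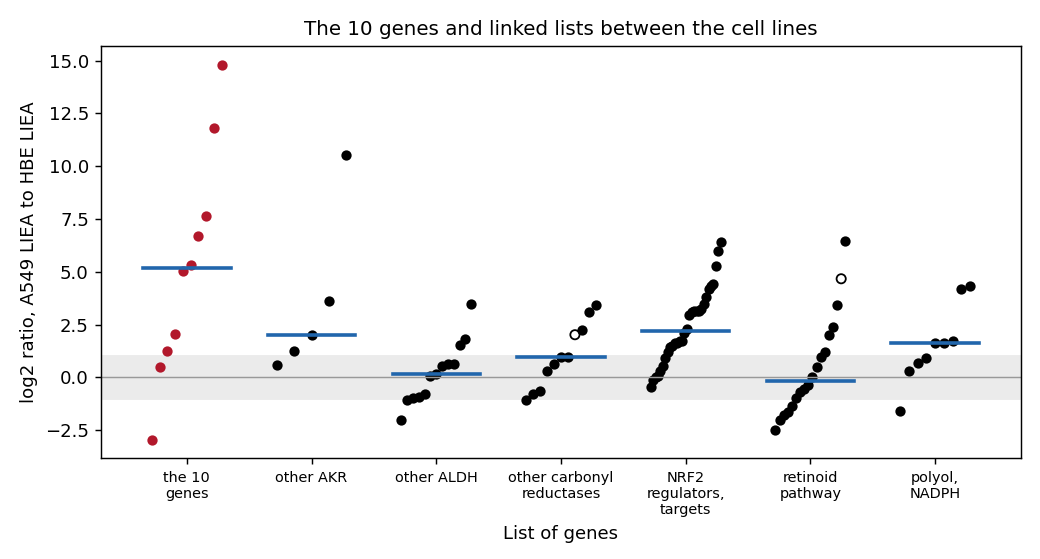
Log2 ratio of A549 LIEA to HBE LIEA for the genes of each list with at least 10 reads in either library; points are genes, lines are list medians and open circles are lower bounds with HBE LIEA at 0. The 10 enzymes have the highest median, 5.18, and the NRF2 list, with a median of 2.20, has no gene at least 2-fold lower.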

How the data were processed

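The authors dropped short and low-quality Ion Torrent reads and aligned each library to human RefSeq-RNA with FANSe2. Splice variants were combined by gene, and the values deposited are log2 rpkM. No pseudocount had been added, and a gene without reads is not listed. Values were raised to the power of 2. Since rpkM is reads divided by length and total, the totals and reads could be computed back. All 18856 genes gave whole reads (100%), and at the chosen totals 97.7% of 300 genes gave whole lengths. Reads and length share a whole factor, set from annotated transcript lengths (GENCODE 44 on GRCh37); it was above 1 for 872 genes and for 0 of the 10 enzymes. The recovery was tested on simulated data. In each library 4 rows with repeated, date-like names were left out, as were 1589 blank rows of the Smart-seq2 file.

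Genes with at least 10 reads in either library were compared, with 2-fold as the threshold. Intervals were exact (Clopper-Pearson for shares and ratios, Poisson for levels) at 95%. A ratio with 0 reads used a floor of 3 reads, while counts of at least 1 read were used as they were. With 1 library per condition no test over samples was made. The genes and lists were chosen with earlier results of these data known. Named genes were all 10 enzymes, the highest and lowest ratio of each list, genes of a pathway step beside a member, and the 3 genes nearest to AKR1B10, AKR1C1 and ALDH1A1. Some genes that this rule names are not reported here. Other scalings (median of ratios, TPM), log2(rpkM + 1) with a pseudocount of 1, a 4-fold threshold, the smallest whole reads and summed copies were tried. Values were computed in Python 3.11.15 with pandas 2.3.3, scipy 1.17.1, Biopython 1.88 and numpy 2.4.6, and drawn with matplotlib 3.10.9.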

Additional observations from a re-analysis of the deposited data

How the results depend on the processing

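No paired analysis was possible because there was a single library of each kind, and for the same reason no replicate could be left out. Of 108 values under an alternative, 89 stayed within their counting interval or 1.5 times the count, 19 moved and 0 changed sign with a call. Part of the 89 was fixed in advance. With the smallest whole reads no enzyme ratio could move, as no enzyme had a factor above 1. All enzymes passed the filter on reads, so their counts without it could not change. A summed ratio must lie between those of its genes. A scaling moved a ratio by at most 0.20, well short of 2-fold, and a pseudocount keeps the sign. The 0 therefore says nothing about stability. The count of enzymes at least 2-fold higher in A549 LIEA was 8 under the median of ratios (22.8% of all genes) and TPM (18.1%) and 7 at a 4-fold threshold (11.01%), and that of enzymes lower was 1 under each of these (17.3%, 25.5% and 7.83% of all genes). Between HBE LIEA and Smart-seq2, the count of higher enzymes, 1, became 0 under the median of ratios (26.6% of all genes) and 0 at 4-fold (14.9%), where AKR1B1 fell short. The count of lower enzymes, 3, became 1 under log2(rpkM + 1) (16.2% of all genes) and 2 under TPM (17.8%) and at 4-fold (6.07%). The log2 ratio of ALDH1A1, A549 to HBE LIEA, was 11.24 under log2(rpkM + 1), and against the main scaling the median of ratios moved every log2 ratio of this comparison by 0.16 and TPM by -0.16. A scaling moved a log2 ratio of an enzyme by at most 0.20. Summed reads gave log2 ratios of 5.45 for AKR1C1, AKR1C2 and AKR1C3 and, in an alternative chosen after seeing the data, 11.55 for AKR1B10 with AKR1B15. Depth limits the HBE values of AKR1B10 and ALDH1A1, which rest on 7 and 1 LIEA reads.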

Other observations

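Of 17 other carbonyl and alcohol reductases, 11 had enough reads, and 4 were at least 2-fold higher and 1 lower in A549 LIEA than in HBE LIEA. The shares over all genes were 20.2% and 20.9%, and the median log2 ratio of the list was 0.98. PTGR1, which reduces leukotriene and prostaglandin double bonds, was highest with 1316 reads in A549 LIEA and 134 in HBE LIEA (3.44). NQO1, the quinone reductase, had 7499 and 979 reads (3.09) and is also on the NRF2 list. CBR1, a carbonyl reductase of prostaglandins and quinones, had 766 and 537 reads (0.66), and CBR4 was lowest with 12 and 28 (-1.07). ADH1C, an alcohol dehydrogenase, had 11 reads in A549 LIEA and 0 in HBE LIEA, and entered the median at its value against a floor of 3 HBE reads.

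By Euclidean distance of log2(rpkM + 1) over the 3 libraries, the gene nearest to AKR1B10 was ALDH1A1 (0.99), followed by S100A4 (2.12) and FN1 (2.75). After AKR1B10, the genes nearest to ALDH1A1 were AKR1B15 (2.25) and CRIP1 (2.42). PGD lay at 1.58 and NQO1 at 1.97 from AKR1C1. The 3 libraries carry little information on likeness, and these distances are given as a description. Between HBE LIEA and HBE Smart-seq2, 11 of the 30 NRF2 genes were at least 2-fold higher in LIEA and 6 lower, beside 28.5% and 22.2% of all genes.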
